A study of Oryza sativa with 6 samples.

Results

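The KRP genes of rice were examined here in stem tissue of a resistant rice variety at the feeding site of gall midge maggots. Members were taken by name alone, as every probe set whose gene carries KRP and a number as its symbol or synonym. This gave 4 genes (KRP1, KRP4, KRP5 and KRP6) of the 17905 genes named on the array, measured by 6 of its 57381 probe sets. KRP4 and KRP6 had 2 probe sets each, called A (the one of higher mean signal) and B here, and all 6 probe sets passed the filter on low signal. The gene table lists 6 KRP genes, and KRP2 and KRP3, which no probe set names in the annotation used, were not analysed here.

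KRP proteins (Kip-related proteins, also called ICK proteins) are the plant relatives of the animal inhibitor p27Kip1. They bind the cyclin-dependent kinase CDKA and its D-type cyclin partners and hold the kinase inactive, which slows entry into the cell cycle and can turn dividing cells towards endoreduplication, the copying of DNA without division. Their amount in a cell is set by transcription and also by protein breakdown, which an array does not measure.

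The tested plants (RP-I) were of the indica rice variety RP2068-18-3-5, which carries the recessive resistance gene gm3, and were exposed when 15 days old to 25 females and 10 males of gall midge biotype 1 (GMB1), against which this variety mounts a hypersensitive response, a local death of host cells. Un-exposed plants of the same variety and age (RP-UI) were the control. Plants of both groups went to a humid chamber 48 h after insect release, and 1 cm of stem was taken at the feeding site or at the same place on control plants at 24, 48 and 72 h after infestation. Each array joined the 3 time points, 3 trays of plants in each group were the biological replicates, and maggots had been removed from the tissue, which was a mixture of cell types.

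Expression was read on the Affymetrix Rice Genome Array as a log2 signal (RMA) for each probe set, and RP-I was compared with RP-UI by limma's moderated test, adjusted over the 51532 probe sets that passed the filter. An adjusted p under 0.05 was taken as a call. Correlations between arrays ran from 0.932 to 0.991, and the third RP-I array stood apart from its group, with r = 0.967 and 0.962 to the other RP-I arrays and 0.973 to RP-UI 3. With 3 arrays in a group, their number limited the precision of every value. KNOX genes, which mark the shoot meristem and stem base, were measured in the tissue as labelled: OSH71 had log2 signals of 8.63, 8.22 and 8.57 in RP-I and 7.02, 6.45 and 7.03 in RP-UI.

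No KRP gene passed the test between RP-I and RP-UI. Of the 6 KRP probe sets, 3 had a higher mean in RP-I (both of KRP6 and B of KRP4) and 3 a lower one (KRP1, KRP5 and A of KRP4). At an adjusted p under 0.05 0 of 6 were called by limma, where 0.563% of all probe sets were, and 0 of 6 reached an unadjusted p of 0.05 or under, where 14.2% of all did. The log2 fold changes of the 6 ran from -0.68 to 0.46, with a median of 0.07 beside 0.01 over all probe sets tested. The groups did not overlap for 2 of 6 (18.9% of all probe sets), and 5 of 6 had the same direction in all 3 same-numbered pairs (44.5% of all). In a fit with a replicate block, which compares same-numbered arrays, 1 of 6 was called (KRP5, lower in RP-I), against 8.50% of all probe sets. Because the tissue was bulk stem, fewer cells of a type that express a gene and less RNA in each cell cannot be told apart.

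**Figure D1:**
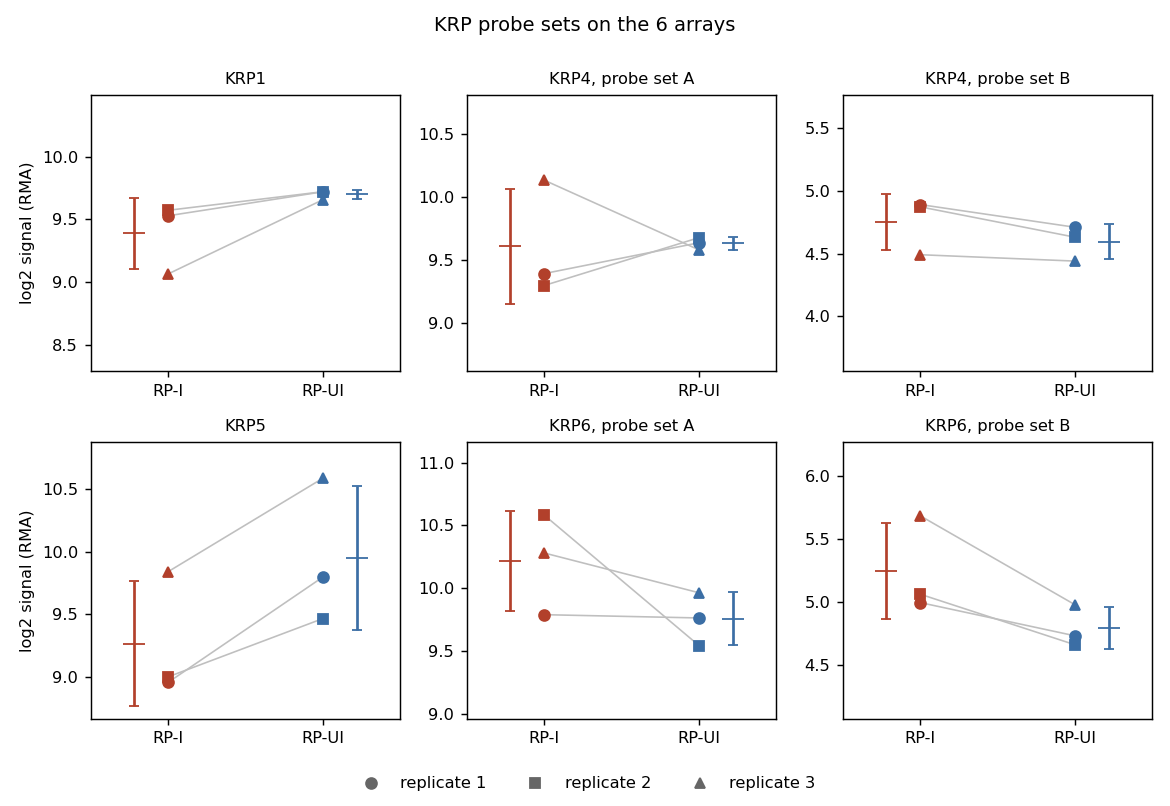
Log2 signal (RMA) of the 6 KRP probe sets on each array, RP-I on the left and RP-UI on the right of each panel, with all panels spanning the same number of log2 units. Symbols show the replicate number, grey lines join same-numbered arrays, and bars beside the points are the mean and SD of 3 arrays. KRP5 lay lower in RP-I in all 3 pairs, the KRP6 probe sets lay higher in all 3, and the scale of a panel has no meaning for the level of one probe set against another.

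KRP5 had the largest difference of the 6. Its probe set gave log2 signals of 8.96, 9.004 and 9.84 in RP-I 1, 2 and 3, against 9.80, 9.47 and 10.58 in RP-UI 1, 2 and 3. The groups overlapped, since RP-I 3 lay above RP-UI 1 and RP-UI 2, and in both groups the array numbered 3 was the highest. Mean signals were 9.27 ± 0.50 in RP-I and 9.95 ± 0.57 in RP-UI (SD, n = 3 each), a log2 fold change of -0.68 (0.623-fold, standard error 0.37, 95% interval -1.56 to 0.20), which did not pass limma's test (adjusted p = 0.508). Within same-numbered pairs RP-I was lower by a like amount each time, with differences of -0.84, -0.46 and -0.74. The SD within groups was 0.536, against a median of 0.247 over all probe sets kept, while the SD of the 3 pair differences was 0.195, against a median of 0.240. With the replicate block the same difference had a standard error of 0.14 and an interval of -1.03 to -0.33, and it passed limma's test narrowly (adjusted p = 0.0474). With a pair left out the blocked log2 fold change was -0.60, -0.79 and -0.65 without the arrays numbered 1, 2 and 3. Each of these intervals lay below 0, but the call was lost each time, at an adjusted p of 0.276, 0.0573 and 0.119 in limma. In these fits 0, 3236 and 2156 of all 51532 probe sets were called, so the first loss held for every probe set.

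KRP6 was the one KRP gene with higher means in RP-I in both of its probe sets. Probe set A had log2 signals of 9.79, 10.58 and 10.28 in RP-I 1, 2 and 3, and 9.76, 9.54 and 9.96 in RP-UI 1, 2 and 3. RP-I 2 and RP-I 3 were above every RP-UI array, RP-I 1 was not, and the pair differences of 0.03, 1.04 and 0.32 were uneven. Its log2 fold change was 0.46 (1.38-fold, standard error 0.24, 95% interval -0.11 to 1.03, limma adjusted p = 0.483). Probe set B had log2 signals of 5.00, 5.06 and 5.69 in RP-I and 4.73, 4.66 and 4.98 in RP-UI, and here every RP-I array lay above every RP-UI array, though RP-I 1 by little. That pattern was seen in 9.12% of all probe sets. The log2 fold change was again 0.46 (1.37-fold, standard error 0.22, 95% interval -0.08 to 0.99, limma adjusted p = 0.448), and with the replicate block its interval was 0.09 to 0.82 at an adjusted p of 0.133. Both probe sets thus gave the same estimate, but the array of highest signal was RP-I 2 in the one and RP-I 3 in the other. B was also much the dimmer, at percentile 42.6 of mean signal over all probe sets but controls, against 90.3 for A. Without RP-I 2 the log2 fold change of A was 0.28, and without RP-I 3 that of B was 0.24.

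KRP1 was lower on every RP-I array than on every RP-UI array, by a small amount. In rice, raised KRP1 activity is known to lower cell production. Its probe set had log2 signals of 9.53, 9.57 and 9.07 in RP-I 1, 2 and 3, and 9.72, 9.72 and 9.66 in RP-UI 1, 2 and 3. RP-UI was tight, with an SD of 0.04, and RP-I was not, with an SD of 0.28 that came from RP-I 3. Groups that do not overlap in this direction were seen in 9.73% of all probe sets. The log2 fold change was -0.31 (0.807-fold, standard error 0.17, 95% interval -0.73 to 0.11, limma adjusted p = 0.537), and it was -0.15 without RP-I 3.

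KRP4 was not called in either probe set, and its groups overlapped in both. Probe set A had log2 signals of 9.39, 9.30 and 10.14 in RP-I 1, 2 and 3, around the narrow range of 9.64, 9.68 and 9.58 in RP-UI 1, 2 and 3. RP-I 1 and RP-I 2 lay below every RP-UI array and RP-I 3 above them, so that the mean difference was near 0 (log2 fold change -0.02, standard error 0.24, 95% interval -0.60 to 0.56, limma adjusted p = 0.992). Without RP-I 3 the log2 fold change was -0.29, at an adjusted p of 0.442 in limma. Probe set B had log2 signals of 4.89, 4.87 and 4.49 in RP-I, against 4.71, 4.63 and 4.44 in RP-UI, which overlap (log2 fold change 0.16, standard error 0.17, limma adjusted p = 0.818). Its pair differences were small and of 1 sign, at 0.18, 0.24 and 0.05. B was the dimmer here too, at percentile 36.4 of mean signal, against 87.7 for A. RP-I 3 was the highest RP-I array in the one probe set of KRP4 and the lowest in the other, so the probe sets of this gene did not follow each other.

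**Figure D2:**
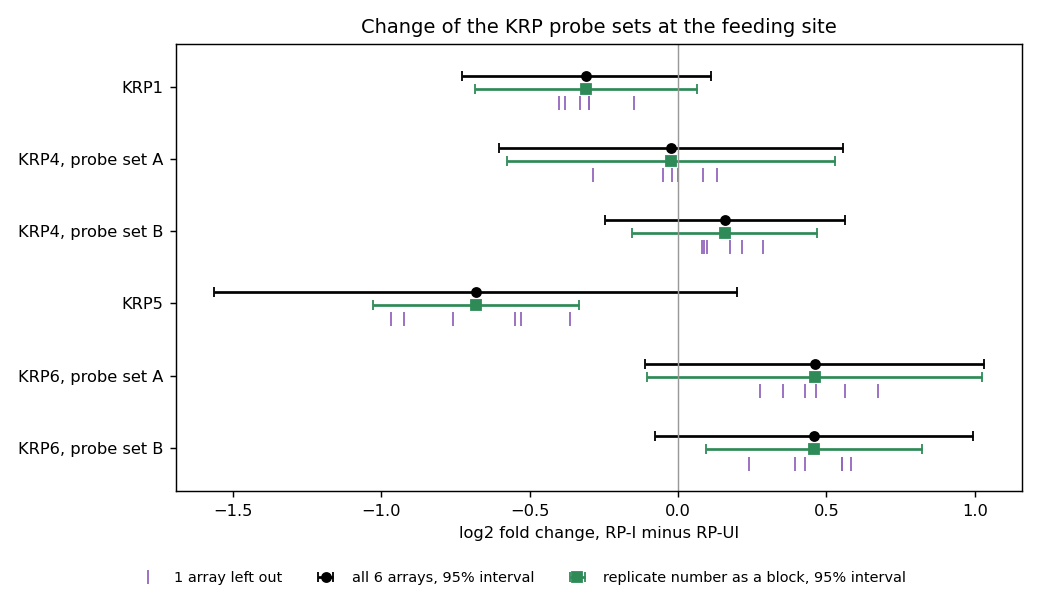
Log2 fold change (RP-I minus RP-UI) of each KRP probe set, with 95% intervals from limma over all 6 arrays (black) and from the fit with the replicate block (green), and the value with each array left out in turn (purple ticks). All 6 black intervals cross 0, the blocked intervals of KRP5 (-1.03 to -0.33) and of KRP6 probe set B (0.09 to 0.82) do not, and the ticks stay on 1 side of 0 for each probe set but A of KRP4.

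Since a single gene's test does not show whether KRP genes differ from each other, the difference between them was taken on each array for the 6 pairs of genes, with the probe set of highest mean signal for each gene. KRP6 and KRP5 had the largest such difference between the groups. The KRP6 signal minus the KRP5 signal was 0.83, 1.58 and 0.44 in RP-I 1, 2 and 3, against -0.03, 0.08 and -0.62 in RP-UI 1, 2 and 3. Every RP-I array lay above every RP-UI array, and the log2 fold changes differed by 1.14 (exact two-sided permutation test, p = 0.1, adjusted p = 0.3 over 6 pairs). KRP4 minus KRP5 was also separated with probe set A of KRP4. It was 0.43, 0.29 and 0.30 in RP-I and -0.16, 0.21 and -1.003 in RP-UI (difference 0.66, exact permutation p = 0.1, adjusted p = 0.3). Probe set B of KRP4, which did not follow A over the arrays, was not used in these pairs. In the other 4 pairs the groups overlapped, with differences from 0.29 to 0.77. The order of the genes in each of the 6 pairs was set from these values to make the difference positive, so its sign is not a result. By same-numbered arrays, which this test does not use, 4 of the 6 pairs of genes had 1 direction throughout. Among them were KRP6 minus KRP1 (0.22, 1.19 and 0.91) and KRP1 minus KRP5 (0.65, 0.32 and 0.15). Of all single probe sets, 44.5% had 1 direction in all 3 same-numbered pairs, and 18.9% had groups that did not overlap. Neither share was taken over other pairs of genes, so the 2 separated pairs have no background to be read against. The 6 pairs reuse the same 4 probe sets and are not separate observations. With 3 arrays against 3, the smallest p that this exact test can give is 0.1, so it could not pass 0.05 for any pair.

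**Figure D3:**
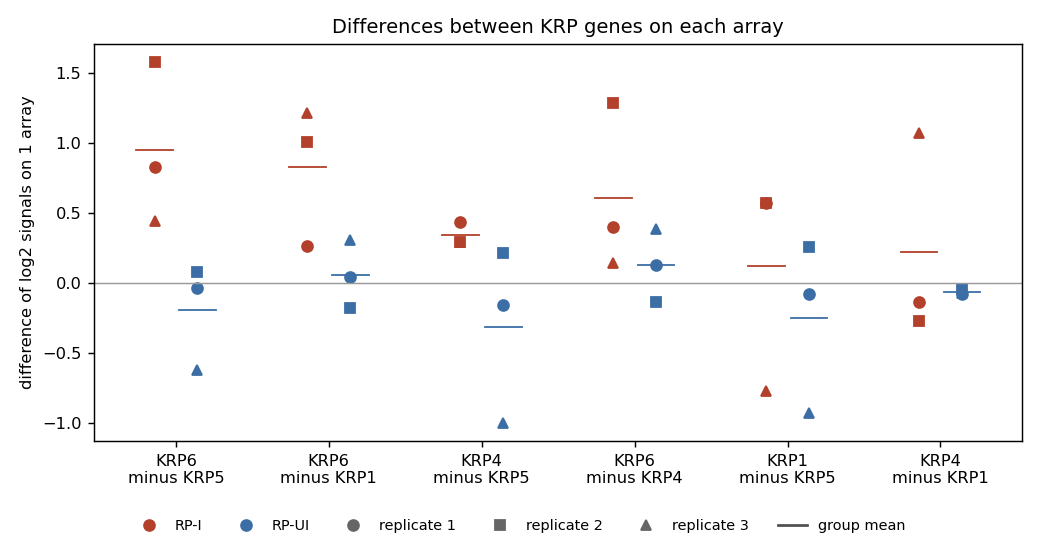
Difference between the log2 signals of 2 KRP genes on each array, for the 6 pairs of genes, RP-I on the left and RP-UI on the right of each pair, with the group mean as a line and the replicate number as symbol. KRP6 minus KRP5 averaged 0.95 in RP-I and -0.19 in RP-UI without overlap, and KRP4 minus KRP1 had its RP-I arrays on both sides of the RP-UI arrays.

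The rest of the CDK and cyclin system was read from a list of symbols, which held 41 genes and 54 probe sets, all of which passed the filter. Of these, 0 rose and 2 fell in RP-I by limma (0.235% and 0.328% of all probe sets did), and with the replicate block 2 rose and 15 fell (4.06% and 4.44% of all). The list's median log2 fold change was -0.33, beside 0.01 over all probe sets tested. At an unadjusted p of 0.05 or under, 22 of 54 were lower in RP-I and 2 higher, where 7.65% and 6.58% of all were. The 2 calls were CYCA3-2 and CYCP2-1. With RP-I 1, RP-I 2 or any RP-UI array left out, 0 of the list were called, as were 0 of all 51532 probe sets. The loss was therefore not particular to these 2 genes. Without RP-I 3, 3 of the list were called, beside 280 of all probe sets. The KRP probe sets, at 0 of 6, and the list were measured on the same arrays, and a difference between them was not tested.

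Other inhibitors of cyclin-dependent kinases had higher means in RP-I in all 3 of their probe sets. They belong to the SIAMESE-related family, which plants have beside the KRP family. SMR1 had log2 signals of 11.18, 11.74 and 13.16 in RP-I 1, 2 and 3, and 10.01, 10.62 and 11.98 in RP-UI 1, 2 and 3. Its groups overlapped, but each RP-I array was above its same-numbered partner, and the log2 fold change was 1.16 (standard error 0.66, limma adjusted p = 0.55, or 0.0168 with the replicate block). EL2, first known in rice as a gene that answers to fungal elicitors, had log2 fold changes of 0.26 and 0.31 in its 2 probe sets (limma adjusted p = 0.798 and 0.953). As in KRP5, the array numbered 3 was the highest of its group in SMR1.

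The kinase that KRP proteins bind, CDKA, had lower means in RP-I in all 5 of its probe sets, with a median log2 fold change of -0.69. CDKA-2 had log2 signals of 7.70, 7.13 and 6.56 in RP-I and 8.39, 8.32 and 7.89 in RP-UI in its probe set of lowest p, without overlap (log2 fold change -1.07, standard error 0.31, limma adjusted p = 0.18, or 0.0293 with the replicate block). CDKA-1 had a value of -0.69 in its probe set of lowest p (standard error 0.21, limma adjusted p = 0.191, or 0.0786 blocked). In its other probe set the value was -0.50 and the groups overlapped (limma adjusted p = 0.319, or 0.116 blocked). CDKB2-1, the kinase of mitosis, had log2 signals of 8.67, 7.81 and 7.44 in RP-I, against 9.84, 9.95 and 10.47 in RP-UI (log2 fold change -2.11, standard error 0.35, limma adjusted p = 0.0634, or 0.0333 blocked).

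The D-type cyclins, which carry CDKA into the cell cycle and which KRP proteins also bind, had lower means in RP-I in 8 of 10 probe sets. CYCD6-1 had a value of -1.56 (log2 fold change, standard error 0.22, limma adjusted p = 0.0502, or 0.0202 blocked) and CYCD3-1 one of -1.82 (standard error 0.30, limma adjusted p = 0.062, or 0.0172 blocked). The 2 probe sets of CYCD5-2 went opposite ways, at -1.79 and 0.31. By limma 0 of the 10 were called lower (0.328% of all probe sets were), and with the block 5 fell (4.44% of all).

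Of the A-type and B-type cyclins, which act in S phase and mitosis, 2 of 3 and 5 of 5 probe sets had lower means in RP-I. CYCA3-2, an A-type cyclin, fell in RP-I, where its log2 signals were 8.59, 8.50 and 8.76, against 10.30, 10.07 and 9.95 in RP-UI (log2 fold change -1.49, standard error 0.15, limma adjusted p = 0.0356). CYCA2-1 had a value of -0.99 (limma adjusted p = 0.0883, or 0.0200 blocked). All 5 probe sets of B-type cyclins, which drive mitosis, were without overlap and lower in RP-I (9.73% of all probe sets were). Their median log2 fold change was -1.71. CYCB2-1 had a value of -1.71 (limma adjusted p = 0.0837, or 0.0309 blocked). CYCB2-2 had one of -2.19 in its probe set of lowest p (limma adjusted p = 0.129, or 0.0401 blocked). CYCP2-1, a P-type cyclin, fell as well (log2 fold change -1.53, standard error 0.16, limma adjusted p = 0.0376, or 0.0172 blocked). CYCP3-1 of the same type had a value of 0.42 (limma adjusted p = 0.19, or 0.104 blocked). The 10 probe sets of P-type cyclins and of cyclins C, F, H, L and T together had a median of 0.00.

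Kinases that activate CDKs or act in transcription were spread around 0, with a median log2 fold change of 0.11 over 13 probe sets. CDKF-4 had a value of -0.56 in its probe set of lowest p (limma adjusted p = 0.172, or 0.0958 blocked). CDKG-2 had one of 1.08 in its probe set of lowest p (limma adjusted p = 0.286, or 0.0348 blocked) and of 0.40 and 0.00 in its other probe sets. CKS1, the small subunit that docks CDKs to their substrates, had a value of -0.72 (limma adjusted p = 0.141, or 0.0402 blocked). OsRBR1, the retinoblastoma-related protein that CDKA with a D-type cyclin phosphorylates, had a value of -1.52 in its probe set of lowest p (standard error 0.33, limma adjusted p = 0.0958, or 0.0343 blocked). In its other probe set the value was -0.79 and the groups overlapped (limma adjusted p = 0.729, or 0.0568 blocked). OsRBR2 had a value of -0.15 (limma adjusted p = 0.902, or 0.606 blocked).

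**Figure D4:**
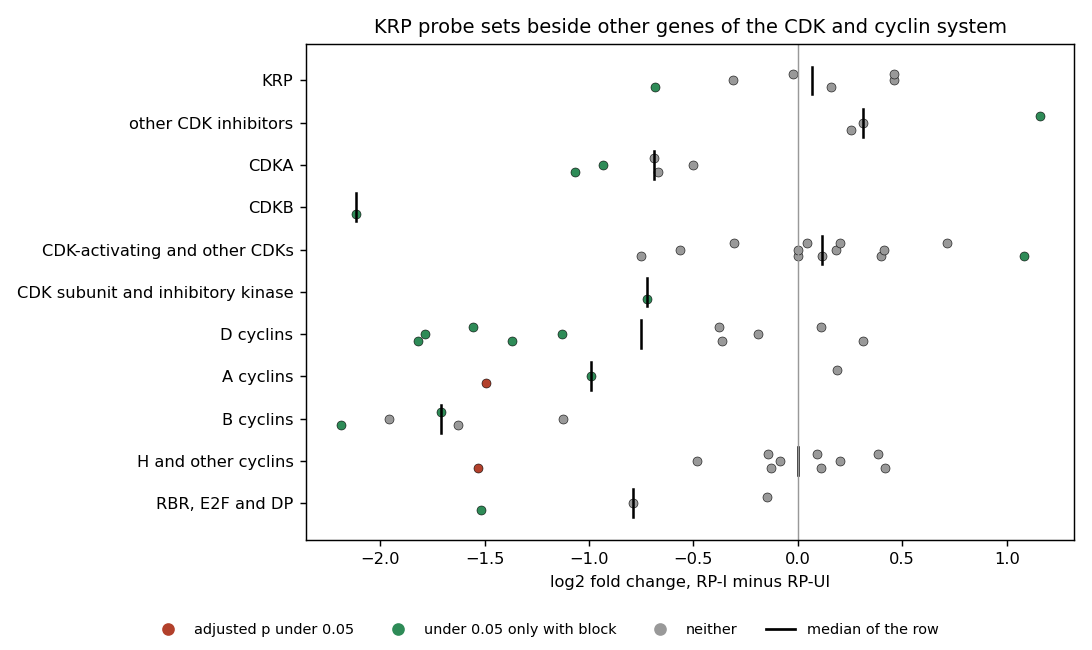
Log2 fold change (RP-I minus RP-UI) of each probe set of the KRP genes and of the other CDK and cyclin genes, by group, with the median of each row as a black line. Red points are the calls by limma (CYCA3-2 and CYCP2-1), green points were calls with the replicate block alone, and grey points passed neither. The KRP points lie between -0.68 and 0.46, while all points of CDKA, CDKB and the B cyclins lie below 0.

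Markers of other tissues and of dividing cells were read on the same arrays. All 7 S-phase probe sets (PCNA and 6 MCM genes of DNA replication) were lower in RP-I without overlap (9.73% of all probe sets), 6 of them called by limma (0.328% of all), with a median log2 fold change of -3.20 and a summed linear signal of 1110 to 2662 in RP-I, against 11416 to 15364 in RP-UI. All 6 KNOX probe sets of meristem and stem base had higher means in RP-I, 1 of them called by limma (OSH71, 0.235% of all), and summed to 1159 to 1450 in RP-I and 569 to 759 in RP-UI. Of 3 leaf photosynthesis probe sets, both of CAB2R had lower means in RP-I and were not called (limma adjusted p = 0.157 and 0.0775), RBCS1 did not pass the filter, and the sum was 5479 to 12339 in RP-I and 19761 to 28039 in RP-UI. The root marker QHB, the single probe set of its list, had log2 signals of 5.57 to 6.15 in RP-I and 5.12 to 5.66 in RP-UI, which overlap (limma adjusted p = 0.558). The part of these differences in the KRP values was not tested.

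To place each KRP gene among other transcripts, its 6 log2 values (probe set A for KRP4 and KRP6) were correlated with those of 2425 genes whose listed name is a symbol, as a description over 6 arrays that share their plants and their normalization. KRP5 was most like OsPYL11, an abscisic acid receptor (r = 0.977), RPL39B, a ribosomal protein (r = 0.975), and the beta-tubulin OsTUB8 (r = 0.974), of which OsTUB8 fell with the replicate block (log2 fold change -0.91, limma adjusted p = 0.538, or 0.0433 blocked). KRP6 was most like EM, a late embryogenesis abundant protein (r = 0.964), ELA3 (r = 0.963) and OsTHT2 (r = 0.958), whose log2 fold changes were 1.86, 2.01 and 0.78. None of these was called (limma adjusted p = 0.282, 0.247 and 0.199, or 0.0735, 0.108 and 0.0823 blocked). KRP1 was most like a gene listed as 24K23.12 (r = 0.994), the laccase LAC10 (r = 0.993) and AC1 (r = 0.989), whose log2 fold changes were -1.14, -0.97 and -0.40. These were not called either (limma adjusted p = 0.39, 0.503 and 0.525, or 0.102, 0.229 and 0.253 blocked). KRP4 was most like the metallothionein MT1B (r = 0.984), DRM2, a DNA methyltransferase (r = 0.965), and the zinc transporter OsZIP4 (r = 0.965), all with log2 fold changes between -0.07 and 0.10. The number of these genes with r over 0.9 was 176 for KRP1, 50 for KRP5, 15 for KRP6 and 14 for KRP4. RP-I 3 lay farthest from the other arrays in KRP1 (9.07, the others 9.53 to 9.72) and in A of KRP4 (10.14, the others 9.30 to 9.68). The r values of these 2 genes therefore depend much on that array.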

How the data were processed

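The authors hybridized RNA to the Affymetrix Rice Genome Array and deposited RMA values, which are log2 signals, 1 for each probe set and array. GeneSpring is named in the methods, and Affymetrix Expression Console, without a version, in the submitters' processing notes. RNA (paper) or tissue (deposited record) of the time points was pooled. The 123 control probe sets were left out, as were probe sets whose mean over the arrays lay under the 10th percentile (51532 kept). RP-I was compared with RP-UI by limma 3.58.1 (R 4.3.3, lmFit, eBayes, Benjamini-Hochberg over all probe sets kept). The fit without the block was also run on simulated arrays with independent noise and with changes larger than those of the KRP probe sets. The fit with the block was not simulated. Differences between KRP genes had an exact permutation test (scipy 1.17.1). Python 3.11.15 with numpy 2.4.6 and pandas 2.3.3 handled tables, and matplotlib 3.10.9 drew figures.

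Names came from the platform annotation and a RefSeq gene table (22436 probe sets with 1 gene, 95 with several, 34850 with none). The KRP members, lists and tests were chosen with earlier results of these data known. Symbols for the anaphase-promoting complex, SCF and RING ligases, E2F and DP matched no probe set. Named were every KRP probe set, up to 2 members of each pathway group with the lowest unadjusted p, and the 3 named genes most like each KRP gene. Probe sets of CYCD5-2 and CDKG-2, and the other probe sets of CDKA-1, EL2 and OsRBR1, were added after their values were seen.

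Same-numbered arrays were treated as pairs in the replicate block because their deviations from the group means correlated above 0.1 in each case (0.521, 0.308 and 0.624 for numbers 1, 2 and 3). The highest correlation between different numbers was 0.295, deviations in a group of 3 sum to 0, and the labels do not say what same-numbered trays share. Alternatives were other filters, scalings and variance settings, the block, a mean over a gene's probe sets, and each array left out.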

Additional observations from a re-analysis of the deposited data

How the results depend on the processing

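No KRP probe set was called by limma under any of the settings other than the replicate block, where 1 was (KRP5, log2 fold change -0.68, adjusted p = 0.0474). The sign of the log2 fold change was kept under all settings for KRP1, KRP5, both probe sets of KRP6 and B of KRP4. For A of KRP4 it was 0.067 as the mean of the gene's probe sets, and 0.087 and 0.155 with the block and without the arrays numbered 1 and 2, a setting added after the data were seen. With single arrays left out the log2 fold changes ran from -0.40 to -0.15 for KRP1, from -0.29 to 0.13 for A and 0.08 to 0.29 for B of KRP4, from -0.97 to -0.36 for KRP5, and from 0.28 to 0.67 for A and 0.24 to 0.58 for B of KRP6. The differences ran from -0.14 to 0.53 for KRP4 minus KRP1, from 0.03 to 0.82 for KRP1 minus KRP5, from 0.58 to 1.05 for KRP6 minus KRP1, from 0.32 to 0.92 for KRP4 minus KRP5, from 0.15 to 0.72 for KRP6 minus KRP4, and from 0.827 to 1.396 for KRP6 minus KRP5.

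Over all probe sets, 290 were called at an adjusted p under 0.05, against 126 with each array centred on its median, 87 with an intensity trend and robust prior, 2675 with array weights, and 4379 with the replicate block, or 0, 3236 and 2156 with the block and without the arrays numbered 1, 2 and 3. With single arrays left out it was 280 without RP-I 3 and 0 without any of the others. At an unadjusted p of 0.05 or under there were 7330, against 11924 with the block, 11678 with the block and without the arrays numbered 3, and 5011 to 7977 with single arrays left out, of which 2327 to 3660 were also 2-fold. In the CDK and cyclin list 2 were called, against 0 with the trend, 10 with array weights, 17 with the block (0, 14 and 10 without the arrays numbered 1, 2 and 3) and 0 to 3 with single arrays left out, where 17 to 23 were lower at an unadjusted p of 0.05 or under. The causes were not tested. The pooled time points and the 3 arrays in a group limit what these values can show.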
